A study of Rattus norvegicus with 8 samples.

Results

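The miRNAs described here are those that blood studies tie to platelets and to the lining of blood vessels, namely rno-miR-126a-3p, rno-miR-126a-5p, rno-miR-221-3p, rno-miR-222-3p, rno-miR-22-3p, rno-miR-191a-5p, rno-miR-151-3p and rno-miR-151-5p (the prefix rno, for rat, is left out below). They were chosen by name, and all 8 were among the 719 rat miRNAs of the array, each measured by 20 spots. The arrays measured RNA of the exosome-rich fraction of rat serum, 4 from sham-operated controls (replicates 1, 2, 3 and 4) and 4 from rats with reflux esophagitis (RE; replicates 5, 8, 9 and 10), with 1 array per sample. RE was produced in male Wistar rats by narrowing the outlet of the stomach at the duodenum and tying off the forestomach border, so that gastric contents ran back into the esophagus, and serum was taken on day 21. The labels give the day for RE only, and for the controls it comes from the study's methods. No age is given, and nothing in the sources says that every sample was the serum of a different rat. The p-values therefore speak only of the spread among the 8 samples, which may be technical.

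Cells release small vesicles, the exosomes, which carry miRNAs into the blood. A miRNA is a short RNA that is cut from 1 arm (5p or 3p) of a hairpin and represses messenger RNAs that pair with its seed, the stretch from base 2 to base 8. miR-126 is the classical endothelial miRNA. In mouse and zebrafish it represses Spred1, a brake on signalling by vascular growth factors. miR-221 and miR-222 lie next to each other and repress the receptor KIT and the cell cycle inhibitor p27 in human cells. Platelets, which are shed by megakaryocytes, are rich in miR-126, miR-221, miR-22, miR-191 and miR-223, and platelets release part of their content when blood clots to give serum.

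The mature sequences of 6 of the 8 miRNAs matched entries of the RefSeq table (GRCr8). They are shown because the seeds decide which of these miRNAs form a family and because the array probes pair with their 3′ ends. Capitals mark the seed.
miR-126a-3p: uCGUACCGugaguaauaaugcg
miR-126a-5p: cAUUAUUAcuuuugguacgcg
miR-221-3p: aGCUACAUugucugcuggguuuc
miR-222-3p: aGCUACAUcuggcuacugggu
miR-22-3p: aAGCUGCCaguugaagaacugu
miR-191a-5p: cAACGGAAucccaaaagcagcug
miR-221-3p and miR-222-3p share 1 seed, and the other 4 seeds occurred in no further entry among the 693 mature sequences of the table. Beyond the seed the pair differs. Over all positions compared, the shared seed included, 11 of 21 were identical when the sequences were laid side by side from the 5′ end without gaps.

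On GRCr8, all of them on the plus strand, the arms of miR-126a lie at chr3:29813219-29813240 (3p) and chr3:29813182-29813202 (5p), inside the span of Egfl7, which codes for a protein secreted by endothelial cells. miR-222-3p at chrX:6022682-6022702 and miR-221-3p at chrX:6023246-6023268 are 543 bases apart, inside the spans of 2 long noncoding RNAs. miR-22-3p lies at chr10:60805387-60805408, where the table holds no gene but its own. miR-191a-5p lies at chr8:118142641-118142663, inside the spans of Dalrd3 and of a further miRNA gene, Mir3555. At the arms of miR-126a the RefSeq table also holds Mir126b beside Mir126a. It enters both mature arms under Mir126b, and they were matched by the name of the arm. The table gives gene spans without exons, so exon and intron cannot be stated.

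The arrays differed in brightness, and this bears on the dim miRNAs. The 75th percentile of the signal over the 144 miRNAs detected on all 8 arrays was between 494 and 915 in controls, and it was 1052, 1080, 239 and 442 in RE replicates 5, 8, 9 and 10. Controls had between 212 and 232 detected miRNAs, and RE had 245, 229, 144 and 197. RE replicate 9 was therefore the dimmest array, with the fewest detections. Detection follows the array software, which lists a miRNA at 0.1 where it did not detect it.

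In serum exosomes none of the 6 miRNAs that could be tested passed the test for a difference between RE and controls, and 2 of the 8 were detected on 1 array or none. miR-22-3p, miR-126a-3p and miR-151-5p were detected on all 8 arrays. miR-126a-5p and miR-221-3p were missing only from RE replicate 9, and miR-191a-5p was missing from RE replicates 9 and 10. miR-222-3p was detected in control replicate 2 alone, and miR-151-3p on no array. The number of these miRNAs detected per array was 6, 7, 6 and 6 in the controls and 6, 6, 3 and 5 in RE replicates 5, 8, 9 and 10. For comparison between arrays, each total was expressed relative to its array's 75th percentile, as named above, raised to a floor of 0.00350 where it lay lower, and taken to log2. The floor, -8.16 on the log2 scale, is the smallest scaled value at which any miRNA was detected. It came from RE replicate 5, where the lowest detected total was 3.68 against a 75th percentile of 1052. On RE replicate 9 these were 4.60 and 239, and on RE replicate 10 they were 4.44 and 442. Values set to the floor on RE replicates 9 and 10 thus lie below any scaled value detected there, which makes fold changes that rest on them more negative. These are the scaled signals given below.

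**Figure D1:**
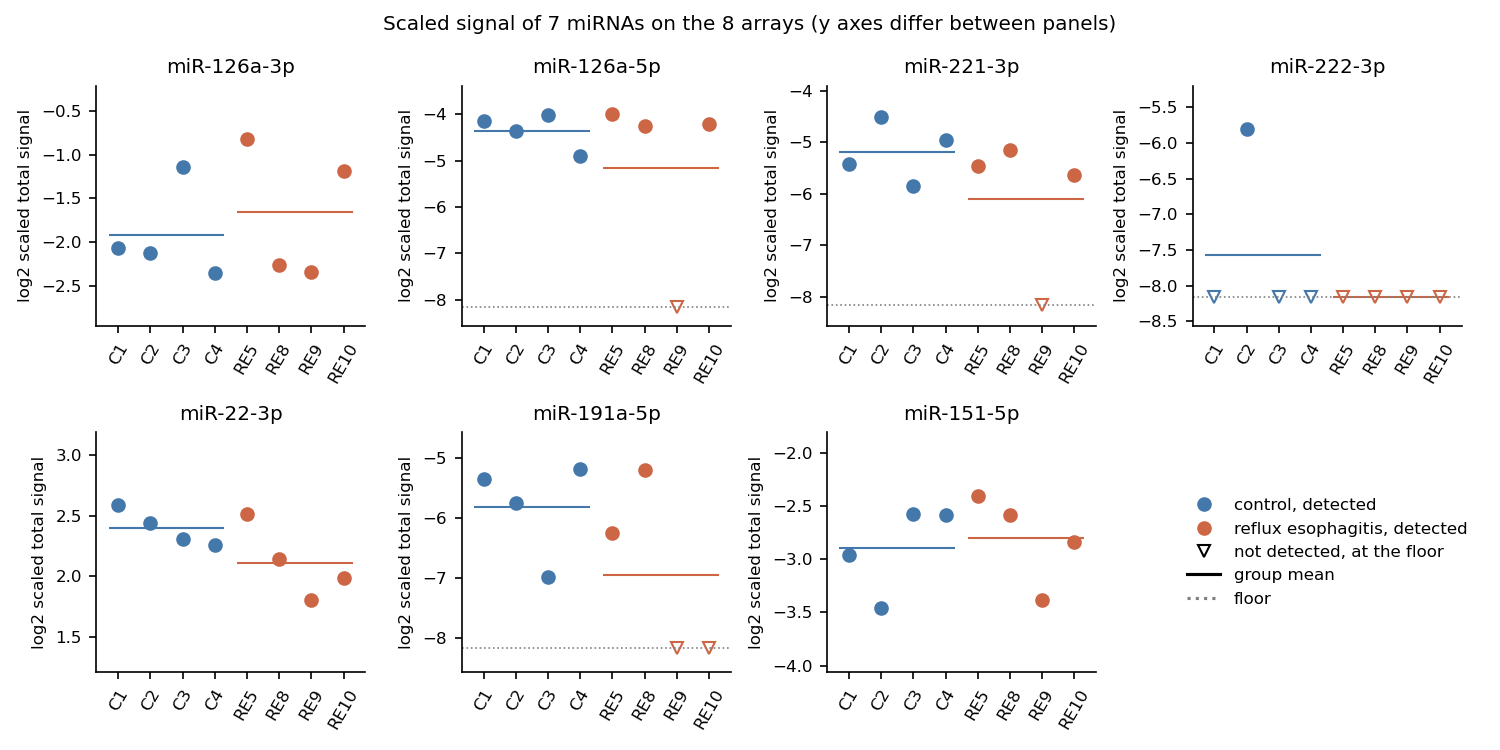
Scaled signal (y axis, log2 of the total signal over the array's 75th percentile) of 7 of the 8 miRNAs on each array (x axis, C for controls and RE for reflux esophagitis, with the replicate number). Open triangles mark arrays without detection, set at the dotted floor of -8.16, and lines are group means; the points of the 2 groups overlap in each panel with more than 1 detection.

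miR-22-3p, which is found in many tissues, had a total signal of 3511, 2678, 2764 and 4381 in the controls and 5999, 4766, 837 and 1751 in RE replicates 5, 8, 9 and 10. RE replicates 5 and 8 were above all controls and RE replicates 9 and 10 below them, as were the 75th percentiles of these arrays. It made up between 1.53% and 1.79% of the signal of all rat miRNAs in controls and 2.44%, 1.78%, 1.08% and 1.15% in RE. Signal depends on the probe as well as on the amount, so these shares describe the array and not the number of molecules. After scaling, the log2 values were 2.59, 2.44, 2.31 and 2.26 in the controls and 2.51, 2.14, 1.81 and 1.99 in RE. RE replicates 8, 9 and 10 lay below all controls, while RE replicate 5 lay above 3 of them, so the groups overlapped. The control mean was 2.40 ± 0.15 (SD, n = 4) and the RE mean 2.11 ± 0.30 (SD, n = 4). The log2 fold change was -0.29 (standard error, SE, 0.28; limma, adjusted p = 0.912; two-sided exact permutation test, p = 0.143), where 4 arrays against 4 cannot give an exact p below 0.0286. The 95% confidence interval ran from -0.92 to 0.34 on the log2 scale, a range from 0.530-fold to 1.27-fold. The median of all 192 tested miRNAs was also -0.29 in this scaling, and relative to that median miR-22-3p differed by 0.0041. That set includes miRNAs with arrays at the floor. Over the 144 miRNAs detected on all 8 arrays, as miR-22-3p was, the median was -0.19.

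The 2 probes of miR-22-3p, of 18 and 19 bases and with 10 spots each, were both counted on all 8 arrays, and taken alone they gave log2 fold changes of -0.24 and -0.31. Repeated spots of the longer probe on 1 array varied with a coefficient of variation between 2.86% and 16.7%. Among the 144 miRNAs detected on all arrays, the pooled within-group SD of miR-22-3p on the log2 scale, 0.24, was the 7th smallest, against a median of 0.57.

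miR-126a-3p had a total signal of 140, 114, 253 and 179 in the controls and 596, 225, 47.4 and 194 in RE replicates 5, 8, 9 and 10. Scaled, the log2 values were -2.06, -2.12, -1.14 and -2.35 in the controls and -0.82, -2.26, -2.34 and -1.19 in RE. RE replicates 5 and 10 and control replicate 3 were high, and the other 5 arrays lay between -2.35 and -2.06, so each group held both high and low arrays. The control mean was -1.92 ± 0.53 (SD, n = 4) and the RE mean -1.65 ± 0.76 (SD, n = 4), with a log2 fold change of 0.26 (SE 0.45; limma, adjusted p = 0.927; exact permutation test, p = 0.657). The 95% confidence interval ran from -0.76 to 1.29, a range from 0.590-fold to 2.45-fold. Without RE replicate 5 the fold change was -0.013, and without RE replicate 9 it was 0.61. Its pooled SD of 0.66 was the 84th smallest of 144. The 17-base and 18-base probes were counted on every array and gave 0.27 and 0.25.

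The other arm of the same hairpin, miR-126a-5p, represses Dlk1 in mouse endothelium. Its total signal was 33.1, 23.9, 34.4 and 30.9 in the controls and 66.4, 57.0 and 24.0 in RE replicates 5, 8 and 10. RE replicate 9 did not pass detection, with a mean spot signal of 9.96 and 0 of 20 spots well above background. The 95th percentile of the negative control spots on that array was 8.43. Scaled, the log2 values were -4.14, -4.37, -4.02 and -4.89 in the controls and -3.99, -4.24 and -4.20 in the 3 RE replicates with detection. These 3 arrays lay within or just above the range of the controls. With RE replicate 9 at the floor the log2 fold change was -0.79 (SE 0.88; limma, adjusted p = 0.912; exact permutation test, p = 0.771). Without that array it was 0.33, and with the mean signal of the spots in place of the total it was 0.21 over all 8 arrays. The sign of this fold change thus rested on 1 array at the floor.

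Within an array the ratio of the 2 arms does not depend on the scaling. The log2 ratio of miR-126a-3p over miR-126a-5p was 2.08, 2.25, 2.88 and 2.54 in the controls and 3.17, 1.98 and 3.01 in RE replicates 5, 8 and 10. The highest ratios belonged to the 3 arrays in which miR-126a-3p, the numerator, was high, which is partly built into the ratio. The means were 2.44 ± 0.35 (SD, n = 4) and 2.72 ± 0.64 (SD, n = 3), a difference of 0.28 that was smaller than the spread in RE (exact permutation test over 35 splits, p = 0.429, smallest possible p 0.0286). Only the change of such a ratio between groups is read, since each arm has its own probes.

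**Figure D2:**
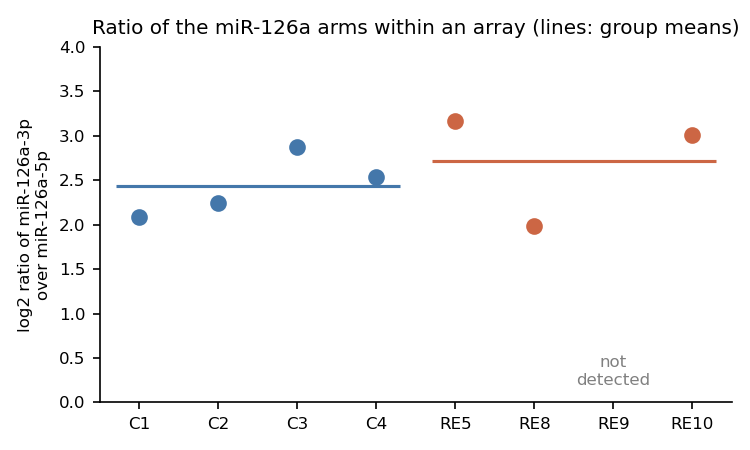
Log2 ratio of miR-126a-3p over miR-126a-5p within each array (y axis) for controls (C) and reflux esophagitis (RE), with lines at the group means of 2.44 and 2.72. RE replicate 9 has no ratio because miR-126a-5p was not detected there; the RE points include both the lowest and the highest ratio.

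miR-221-3p was a dim miRNA in this serum fraction. Its total signal was 13.7, 21.8, 9.70 and 29.6 in the controls and 24.1, 30.5 and 8.97 in RE replicates 5, 8 and 10, and it was not detected in RE replicate 9. Scaled, the log2 values were -5.41, -4.50, -5.85 and -4.95 in the controls and -5.45, -5.15 and -5.62 in RE. The 3 RE values lay inside the range of the controls, though RE replicate 10 passed detection with 0 spots well above background. With RE replicate 9 at the floor, the log2 fold change was -0.92 (SE 0.67; limma, adjusted p = 0.912; exact permutation test, p = 0.286), and without that array it was -0.11. The longer of the 2 probes, of 20 bases, was counted on 7 arrays and the 19-base probe on only 4 (control replicates 2 and 4 and RE replicates 5 and 8). The total signal therefore summed 2 probes on some arrays and 1 on others. Each probe taken alone on all 8 arrays gave a smaller difference, -0.29 for the 19-base probe (standard error 0.30, exact permutation test, p = 0.171) and -0.34 for the 20-base probe (standard error 0.29, exact permutation test, p = 0.114).

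Its neighbour with the same seed, miR-222-3p, was detected in control replicate 2 only, with a total signal of 8.85 from the 14-base probe. The mean spot signal was 5.14, 9.64, 3.19 and 5.13 in the controls and 5.40, 6.23, 0.0884 and 3.48 in RE replicates 5, 8, 9 and 10. The 95th percentile of single negative control spots was 6.23 to 8.91 in the controls and 6.56 to 9.15 in RE. The mean over both probes exceeded it in control replicate 2 only, but a mean of spots is not a like measure. The 14-base probe alone averaged 7.08 and 13.1 in control replicates 1 and 2, above their percentiles of 6.23 and 7.37. In RE replicates 5 and 8 it averaged 7.28 and 8.80, above 6.56 and 7.67, and on the other arrays it lay below. No fold change was tested, because miR-222-3p was not detected on all arrays of either group. These arrays do not show whether it differed. The array reads the 2 neighbours with probes of different length, shown here as deposited.
miR-221-3p, 20 bases: gaaacccagcagacaatgta
miR-222-3p, 14 bases: acccagtagccaga
The miR-221-3p probe pairs with bases 4 to 23 of its miRNA and the miR-222-3p probe with bases 8 to 21, so neither covers the whole of the seed they share. The 5p arms, miR-221-5p and miR-222-5p, were detected on no array.

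miR-191a-5p, which is abundant in platelets and is often used as a reference in blood studies, had a total signal of 14.3, 9.11, 4.42 and 25.2 in the controls and 13.9 and 29.3 in RE replicates 5 and 8. It was not detected in RE replicates 9 and 10, the 2 arrays with the lowest 75th percentiles. Scaled, the log2 values were -5.35, -5.76, -6.98 and -5.18 in the controls and -6.25 and -5.21 in the 2 RE replicates with detection. Both lay inside the range of the controls. The low end of that range was control replicate 3, which passed detection with 0 spots well above background. RE replicate 5 lay below control replicates 1, 2 and 4. With RE replicates 9 and 10 at the floor, the log2 fold change was -1.13 (SE 0.73; limma, adjusted p = 0.912; exact permutation test, p = 0.229), and without RE replicate 9 it was -0.56.

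Of the 4 probes for miR-191a-5p only the longer ones responded, and their sequences differ by single bases at the 3′ end.
12 bases: cagctgcttttg
13 bases: cagctgcttttgg
14 bases: cagctgcttttggg
15 bases: cagctgcttttggga
The 12-base and 13-base probes gave a probe signal between -1.74 and 0.346 on all 8 arrays and were never counted. The 14-base probe gave 8.04, 5.83, 4.42 and 13.6 in the controls and 8.05, 15.8, 2.73 and 2.94 in RE replicates 5, 8, 9 and 10. The 15-base probe gave 6.27, 3.28, 2.98 and 11.6 in the controls and 5.80, 13.5, 1.67 and 1.29 in RE. On both, before scaling, RE replicates 9 and 10 had the lowest values and RE replicate 8 the highest. Relative to the array's 75th percentile, RE replicate 9 lay above control replicate 3 and RE replicate 5 on both probes. After scaling by the array's 75th percentile, the log2 fold changes were -0.30 for the 14-base probe (exact permutation test, p = 0.314) and -0.45 for the 15-base probe (exact permutation test, p = 0.543). The other arm, miR-191a-3p, was detected on all 8 arrays with a total signal between 20.9 and 25.5 in controls and of 29.5, 32.3, 5.11 and 24.2 in RE, and its log2 fold change was -0.24 (SE 0.36; limma, adjusted p = 0.927). The related miR-191b was detected on none.

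**Figure D3:**
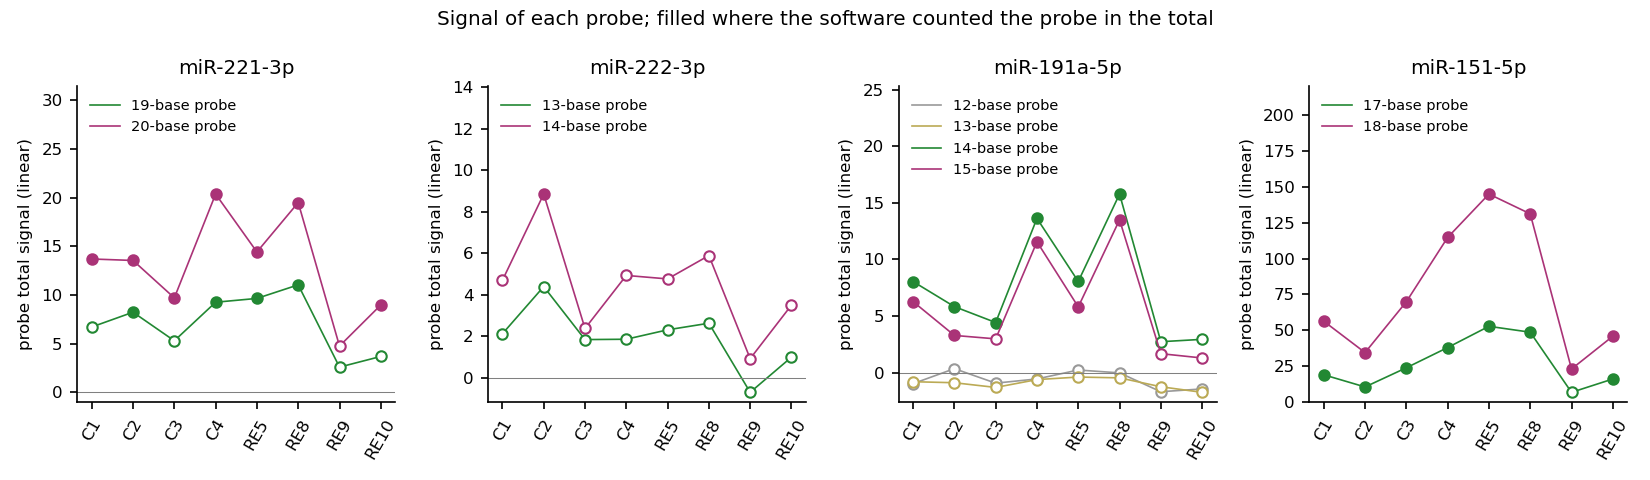
Signal of each probe (y axis, linear scale, each panel with its own range) of miR-221-3p, miR-222-3p, miR-191a-5p and miR-151-5p on each array, with filled points where the software counted the probe in the total. The 12-base and 13-base probes of miR-191a-5p stay near 0 on all 8 arrays. In these unscaled signals RE replicate 9, the dimmest array, is the lowest or next to lowest for each longer probe.

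miR-151-5p had a total signal of 75.2, 44.8, 93.7 and 153 in the controls and 198, 180, 22.9 and 61.8 in RE replicates 5, 8, 9 and 10. Scaled, the log2 values were -2.96, -3.46, -2.57 and -2.58 in the controls and -2.41, -2.59, -3.38 and -2.84 in RE. Control replicate 2 and RE replicate 9 were the low arrays of their groups, and the ranges overlapped almost fully. The control mean was -2.89 ± 0.42 (SD, n = 4) and the RE mean -2.80 ± 0.42 (SD, n = 4), with a log2 fold change of 0.089 (SE 0.34; limma, adjusted p = 0.949; exact permutation test, p = 0.743). The 95% confidence interval ran from -0.69 to 0.87, a range from 0.620-fold to 1.83-fold. Its 17-base and 18-base probes gave 0.22 and 0.16. Its partner from the other arm, miR-151-3p, was detected on no array, with mean spot signals between -3.95 and -2.003.

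Across these miRNAs 0 of 6 tested passed limma's threshold (adjusted p under 0.05), and 0 of 6 had an unadjusted p under 0.05. Of all 192 tested, 1.04% passed in either direction, both lower in RE, and 2.6% had an unadjusted p under 0.05. The groups did not overlap for 0 of 6, against 1.56% of all tested. The fold change was below 0 for 4 of 6, against 81.2% of all tested, and the median was -0.54, against -0.29 over all tested. For the 3 miRNAs detected on all 8 arrays the median was 0.089, against -0.19 over the 144 such miRNAs. The 3 with the most negative values were those with RE arrays at the floor. The share of the 8 miRNAs in the summed signal was between 1.66% and 1.93% in controls and was 2.80%, 1.97%, 1.17% and 1.35% in RE replicates 5, 8, 9 and 10, with miR-22-3p making up between 85.8% and 92.7% of it.

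**Figure D4:**
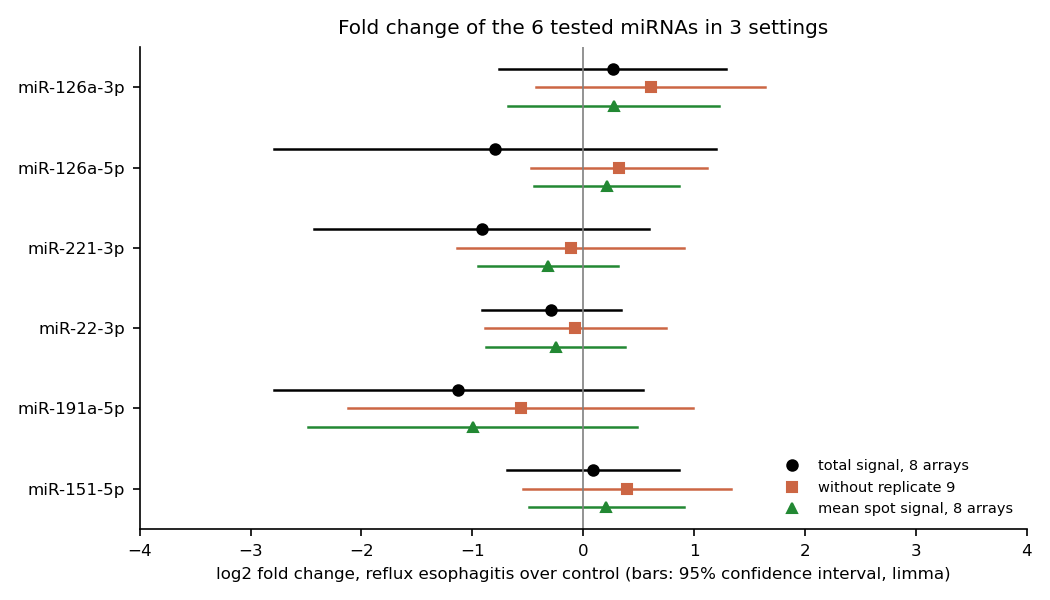
Log2 fold change of reflux esophagitis over control (x axis) with its 95% confidence interval from limma for the 6 tested miRNAs, in 3 settings (total signal on 8 arrays, the same without RE replicate 9, and mean spot signal on 8 arrays). Each interval includes 0, and the fold change of miR-126a-5p goes from -0.79 to 0.33 without RE replicate 9.

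Ratios within an array were compared for 12 pairs, the 3 pairs among miR-126a-3p, miR-22-3p and miR-151-5p, and each of these over miR-451-5p (red blood cells), miR-16-5p (many blood cells) and miR-223-3p (myeloid cells and platelets). No pair passed (adjusted p between 0.754 and 0.943, Benjamini-Hochberg over the 12 exact permutation tests). The pair with the smallest p was miR-126a-3p over miR-22-3p. Its log2 ratio was -4.65, -4.56, -3.45 and -4.61 in the controls and -3.33, -4.40, -4.14 and -3.18 in RE replicates 5, 8, 9 and 10. All 4 RE ratios lay above those of control replicates 1, 2 and 4, while control replicate 3 lay between the higher and the lower RE arrays. The difference was 0.55 (exact permutation test, p = 0.171). For miR-22-3p over miR-151-5p the log2 ratio averaged 5.29 ± 0.52 in controls and 4.92 ± 0.20 in RE (SD, n = 4 each), a difference of -0.38 (exact permutation test, p = 0.257). Of the ratios over the blood cell miRNAs, the largest difference was that of miR-126a-3p over miR-16-5p, at 0.68 (exact permutation test, p = 0.314).

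Each of the 3 miRNAs detected on all arrays was compared with the other 143 by its pattern, as the root mean square difference of the log2 values over the 8 arrays after each miRNA's mean was subtracted. This is a description over 8 arrays that share their scaling. The patterns nearest to miR-151-5p were those of miR-181a-5p, miR-30c-5p and miR-652-3p, at 0.13, 0.16 and 0.19, against a median of 0.65 over the 143. All of these were low in control replicate 2 and RE replicate 9. Nearest to miR-22-3p were miR-30a-5p, miR-23b-3p and miR-27a-3p, at 0.16, 0.17 and 0.18 (median 0.56). miR-126a-3p had no pattern as close, with miR-10b-5p, miR-195-5p and miR-99a-5p at 0.40, 0.43 and 0.45 (median 0.79). miR-151-5p was 9th and miR-22-3p 19th in nearness to miR-126a-3p, at 0.51 and 0.58. In the other direction miR-126a-3p was only 48th of 143 in nearness to miR-151-5p. It was 78th in nearness to miR-22-3p, beyond the median of 0.56 for that miRNA. At 0.39, miR-22-3p was 28th in nearness to miR-151-5p, and miR-151-5p was 43rd in nearness to miR-22-3p.

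**Figure D5:**
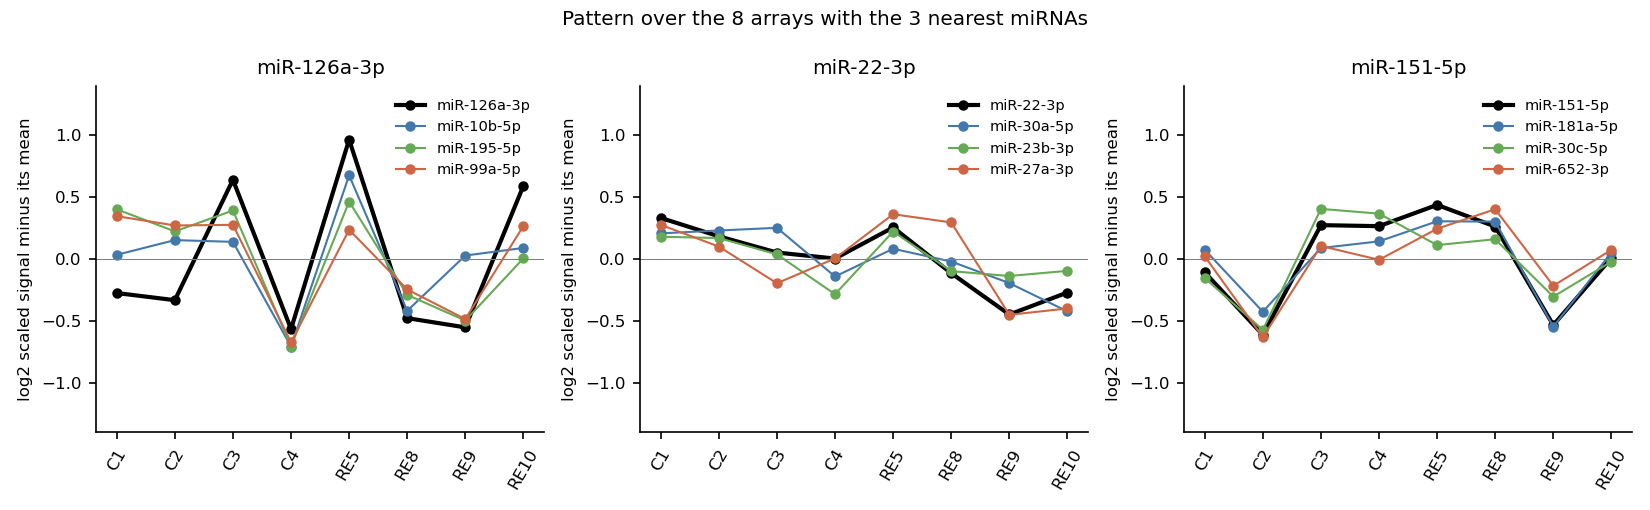
Log2 scaled signal minus the miRNA's own mean (y axis) on the 8 arrays for miR-126a-3p, miR-22-3p and miR-151-5p (black) and the 3 miRNAs with the nearest pattern. By root mean square difference from the black curve, the 3 nearest lie at 0.13 to 0.19 for miR-151-5p and 0.16 to 0.18 for miR-22-3p. For miR-126a-3p they lie farther off, at 0.40 to 0.45.

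The other miRNAs of the same sources gave the same counts. As 1.04% of all 192 tested passed, and 0 of the 144 detected on all 8 arrays, counts of 0 do not set these lists apart. Of 10 further platelet miRNAs, all detected on every array, 0 were higher and 0 lower, with a median of -0.095 (0.097 without RE replicate 9). The 3 brightest were miR-24-3p, miR-223-3p and miR-23a-3p, with log2 fold changes of -0.24, 0.16 and -0.12. The summed scaled signal of the 10 was 21.7 to 28.2 in controls and 18.8 to 30.4 in RE. Of 11 further endothelial miRNAs, 8 were tested, 0 were higher and 0 lower, with a median of -0.14 (0.100 without RE replicate 9). Their brightest were miR-92a-3p, miR-130a-3p and miR-23b-3p, at -0.29, -0.060 and -0.053, and the summed scaled signal was 8.41 to 15.5 in controls and 7.23 to 14.5 in RE. miR-132-3p and miR-31a-5p of this list were detected on 1 and 3 arrays. Several miRNAs of both lists are made by other cells too, so the lists do not separate platelets from the vessel wall.

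Markers of other blood sources were present in both groups. The 3 red blood cell miRNAs on the array, miR-451-5p, miR-16-5p and miR-144-3p, had log2 fold changes of -0.16, -0.41 and 0.26, and a summed scaled signal 16.4 to 31.6 in controls and 13.5 to 27.8 in RE. The 4 leukocyte miRNAs had a median of -0.091, with miR-142-3p at 0.69, miR-150-5p at -0.26 and miR-342-3p at -0.47, and a sum 2.73 to 3.395 in controls and 2.30 to 5.21 in RE. Of the 3 liver miRNAs, miR-192-5p had -0.71 and miR-122-5p, detected in 4 controls and 3 RE samples, had -2.08 with the remaining array at the floor (SE 1.08; limma, adjusted p = 0.870), a median of -1.395 (-0.78 without RE replicate 9), while miR-194-5p was not detected. Their sum was 0.368 to 1.13 in controls and 0.322 to 0.385 in RE. None of these lists held a miRNA that passed, where 1.04% of all 192 tested did. In a serum fraction fewer cells or vesicles of a source and less RNA in each cannot be told apart. The part of blood cells or of clotting in the levels of miR-22-3p and miR-126a-3p was not tested.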

How the data were processed

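The authors labelled RNA of the exosome-rich serum fraction with Cy3 and read 1 array per sample (Agilent Rat miRNA Microarray, feature extraction software 10.10.1.1 per the submitters' processing notes). Intensity values in the deposited files are linear and background-subtracted, with no scaling from array to array, and are given for spots, for probes and summed to a total per miRNA. The spots' processed signals also make up the deposited value table, used as an alternative. The deposited marks for detection, outliers and spots well above background were used as given. In all 1706 detected pairs of miRNA and array, the total equalled the sum of some or all of the miRNA's probes (relative tolerance 0.001), and in 1237 of them the sum of all. All arrays came from 1 slide and 1 scan day. Of the 14380 rat miRNA spots of each array, 0 were saturated and 373 to 455 were marked as outliers. The number of arrays limits the precision.

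Each array's totals were scaled to their 75th percentile among the 144 miRNAs that all arrays detected, floored and taken to log2. limma 3.58.1 (R 4.3.3) compared the groups over the 192 miRNAs that every array of 1 or both groups detected, with Benjamini-Hochberg adjustment over them. Two-sided exact permutation tests covered single values, over 70 splits of 4 against 4. Single probes were fitted the same way among the 397 probes above the floor on all arrays of at least 1 group. The fit was also run on simulated data with independent noise, built from the 144 miRNAs that all arrays detected. Those data held no values at the floor, so the run does not cover the miRNAs with arrays there.

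The members and lists were chosen with earlier results of these data known. Named were all members and the 3 nearest patterns of each member detected on all arrays. Of each list the 3 brightest were named, or fewer where fewer were detected. The lists were other arms, platelet, endothelial, red blood cell, leukocyte and liver. Further list members are named for their detection only. Of the lists, miR-486 and miR-155-5p had no match by name on the array. Alternatives covered signal, background, scaling, floor, filter, variance model, the methods' tests and each array left out. Python 3.11.15 was used with pandas 2.3.3, numpy 2.4.6 and matplotlib 3.10.9.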

Additional observations from a re-analysis of the deposited data

Results flagged for a closer look

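Dixon's criterion sets the gap from an array to its nearest against the range of the group. By it an array stood apart from the rest of its group in 10 of the 60 groups of 4 values compared. For independent groups chance gives about 1 in 20 (3 here). miRNAs named for their like patterns are not independent, so the 10 cannot be read as an excess over 3. Of the 10, 3 concern the miRNAs described above, and each rests on arrays at the floor of -8.16 on the log2 scale. RE replicate 9, without detection, was apart for miR-126a-5p at -8.16 (nearest array -4.24) and for miR-221-3p at -8.16 (-5.62), and control replicate 2 was the only array with detection for miR-222-3p, at -5.80 (-8.16). The other 7 belong to miRNAs named for their pattern, among the 54 groups detected on all 4 arrays. Control replicate 4 was the low array in 4 of them, at -3.69 for miR-10b-5p (nearest array -2.95), -4.32 for miR-195-5p (-3.39), -3.85 for miR-99a-5p (-2.91) and -1.90 for miR-30a-5p (-1.55). Control replicate 2 was the low array for miR-181a-5p at -3.38 (-2.88) and miR-652-3p at -2.87 (-2.24). RE replicate 5 was the high array for miR-23b-3p at -0.52 (-0.83).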

How the results depend on the processing

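The number of these miRNAs that passed was 0 in all 28 alternatives, and the number higher over all tested miRNAs was also 0 in each. The number lower, 2 in the setting reported, was 0 with the mean spot signal, normexp, the methods' scaling, only miRNAs detected on all 8 arrays, or the sum over all probes. It was 1 with no scaling, spike-in scaling, the summed signal, detection on at least 1 array, no filter, eBayes with trend and robust, and the methods' t-test and analysis of variance with either adjustment, and between 1 and 2 with 1 array left out. With array quality weights it was 3, and in the other alternatives it was 2. The sum over all probes, and the methods' scaling without RE replicate 9, were chosen after seeing the data.

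Directions of unpassed values changed as follows, and the cause was not tested. miR-126a-5p was 0.21 with the mean spot signal, 0.15 with normexp, 0.14 with the methods' scaling (0.48 without RE replicate 9) and 0.21 with the sum over all probes. miR-191a-5p was 0.031 with normexp. With the methods' scaling miR-221-3p was 0.015 and miR-22-3p 1.41 (0.043 and 0.085 without RE replicate 9). Without a change of sign, the methods' scaling moved miR-126a-3p to 1.96 and miR-151-5p to 1.79 (0.76 and 0.55 without RE replicate 9) and gave -1.18 for miR-191a-5p (-1.77). With no floor after scaling, miR-126a-5p was -1.56, miR-221-3p -1.68 and miR-191a-5p -2.88. On RE replicate 9 the percentile used by the methods' scaling was 0.1, the value of an undetected miRNA. miR-151-5p was -0.033 with spike-in scaling, and its ratio over miR-223-3p was 0.078 with the mean spot signal. With 1 array left out, values ranged from -0.013 to 0.61 (miR-126a-3p), -1.18 to 0.33 (miR-126a-5p), -1.23 to -0.11 (miR-221-3p), -0.42 to -0.071 (miR-22-3p), -1.70 to -0.56 (miR-191a-5p) and -0.10 to 0.40 (miR-151-5p). In each the upper end was that without RE replicate 9. The ratios that changed sign ranged from -0.072 to 0.45 (miR-126a-3p over miR-151-5p), -0.11 to 0.82 (over miR-451-5p), -0.23 to 0.56 (over miR-223-3p), -0.52 to 0.14 (miR-22-3p over miR-451-5p), -0.088 to 0.29 (over miR-16-5p), -0.14 to 0.45 (miR-151-5p over miR-451-5p) and -0.23 to 0.16 (over miR-223-3p).

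The median fold change of all tested miRNAs was -0.29, and in the alternatives it lay between -0.46 (without control replicate 4) and 0.0016 (the methods' scaling without RE replicate 9), apart from 1.39 with the methods' scaling. The 12-base and 13-base probes of miR-191a-5p gave no value alone, being at the floor on all arrays. No paired analysis was possible because the groups share no replicate numbers.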
